A study of Mus musculus with 6 samples.

Results

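Kupffer cells are the resident macrophages of the liver. They line the sinusoids, take up bacteria, dying cells and spent red cells from the portal blood, and carry receptors suited to these tasks, while monocytes and dendritic cells that enter the organ carry partly different ones. Examined here as markers of these cells were 10 genes of the 18193 that have a probe set assigned to 1 gene only: Adgre1, Cd68, Cd163, Clec4f, Clec7a, Csf1r, Itgax, Marco, Timd4 and Vsig4. They were chosen by name, with earlier results of these data known, so the shares of all genes given beside them are descriptive. A total of 13 probe sets measured them, and for Csf1r and Marco, which have several, the probe set with the highest mean over all arrays gave the value of the gene.

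Livers came from 3 male GHRH-KO mice, in which the gene for growth hormone-releasing hormone is disrupted in the whole body, and from 3 male wild-type littermates, here called control. Both genotypes shared a mixed background of the C57BL6 and 129SV strains. The mice were 10 months old according to the methods of the study, and were killed after a fast of 6 to 8 h. Each array holds the liver of 1 mouse, and the arrays are numbered as in their titles, GHRH-KO replicates 4, 5 and 6 and control replicates 1, 2 and 3. Values are RMA values, a log2 scale of hybridization signal that the authors made from Affymetrix arrays, so a difference of 1 is a 2-fold change.

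Of the 10 markers, Clec7a and Itgax rose in GHRH-KO liver and none fell. A gene was called at an adjusted p under 0.05 (limma, Benjamini-Hochberg adjustment over all probe sets tested) with a fold change above 1.5 or below 0.67. By this rule 0.786% of the 12469 genes tested rose and 0.97% fell. Cd68 had all its GHRH-KO values above all control values but did not pass the adjusted threshold. The other 7 had overlapping groups, with mean values that were higher in GHRH-KO liver for 5 and lower for Timd4 and Marco. The median log2 fold change of the 10 markers was 0.45, against 0.00 for all genes tested, whose quartiles were -0.18 and 0.19. GHRH-KO values lay wholly above the control values in 3 of the 10 markers, against 12.7% of all genes, and wholly below in 0, against 15.7%. The hepatocyte and dendritic cell lists described below each had the same counts, 3 of 10 above and 0 below. The general macrophage list had 1 of 19 above and 0 below. Of all lists, the macrophage cytokines had the largest share above, with 4 of 9, and 0 below. Several lists had 0 above, among them the resident Kupffer cell genes, with 0 of 14 above and 1 below. These are bulk liver arrays, in which fewer cells of a type and less RNA per cell cannot be told apart.

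**Figure D1:**
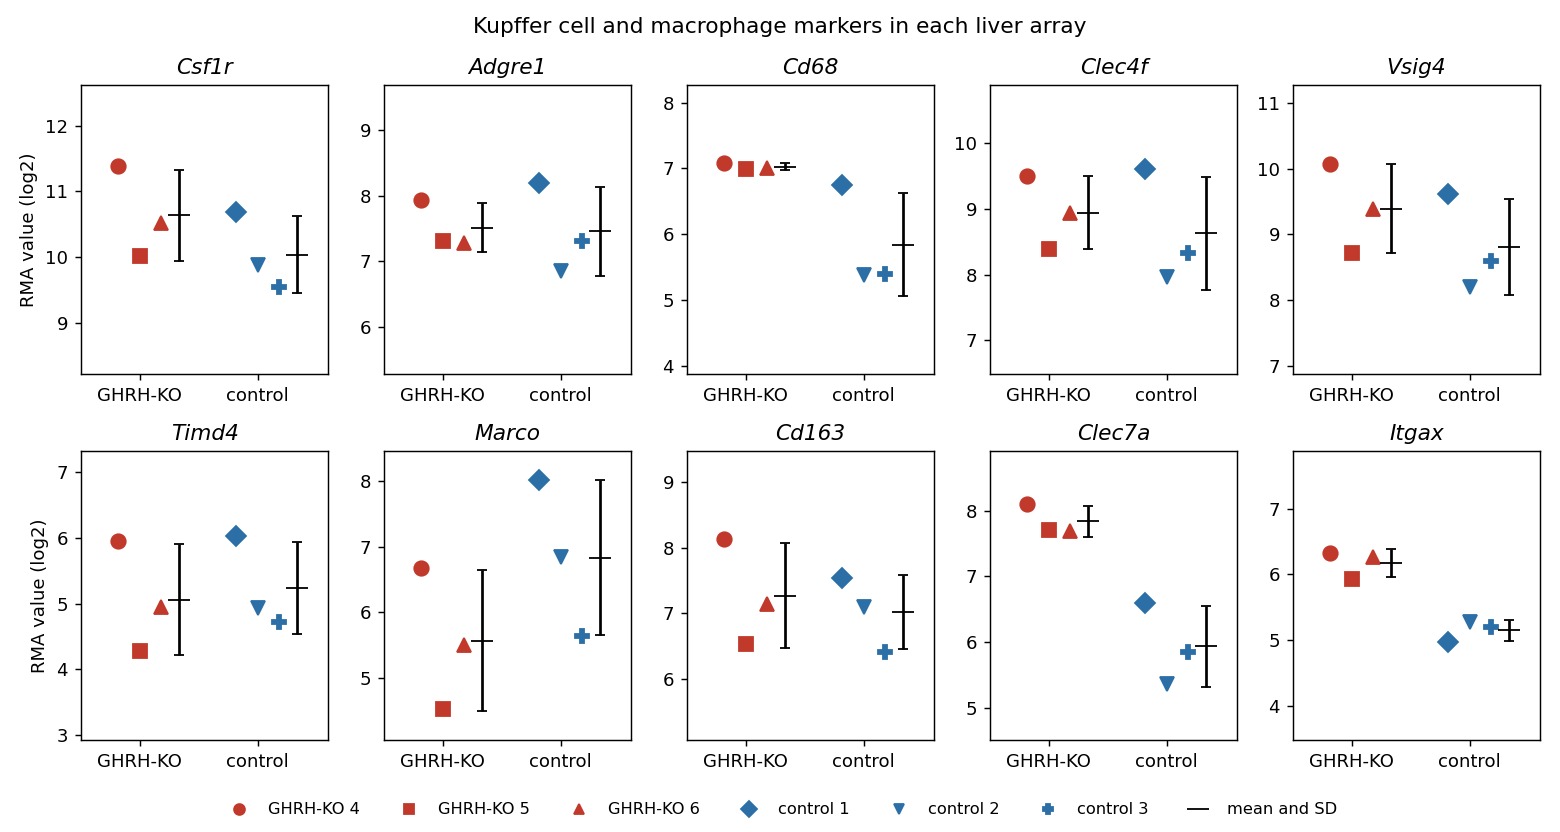
RMA values (log2) of the 10 markers in each GHRH-KO array (red, left) and control array (blue, right), with black bars for group mean and SD; every panel spans the same number of log2 units. Clec7a, Itgax and Cd68 have all GHRH-KO points above the control points, and in the other 7 genes the groups overlap.

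The 250 bases upstream of the annotated start are given for the 3 markers whose groups lay apart and for Marco, the marker with the lowest fold change (RefSeq, GRCm38.p6, each written 5′ to 3′ on the strand of its gene). Capitals mark matches on either strand to GAGGAA, the core bound by PU.1 (the myeloid factor encoded by Spi1), and to TGAGTCA, the AP-1 consensus; the search letters do not overlap each other, and the second motif was chosen after the sequences had been seen. Clec7a lies on the minus strand of chromosome 6, Itgax on the plus strand of chromosome 7, Cd68 on the minus strand of chromosome 11 and Marco on the minus strand of chromosome 1.
Clec7a, chr6:129472786-129473035: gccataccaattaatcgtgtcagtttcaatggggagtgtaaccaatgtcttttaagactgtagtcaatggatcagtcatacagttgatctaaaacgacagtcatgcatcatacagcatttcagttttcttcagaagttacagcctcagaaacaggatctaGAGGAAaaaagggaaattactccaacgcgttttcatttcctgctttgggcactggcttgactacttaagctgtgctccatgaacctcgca
Itgax, chr7:128129300-128129549: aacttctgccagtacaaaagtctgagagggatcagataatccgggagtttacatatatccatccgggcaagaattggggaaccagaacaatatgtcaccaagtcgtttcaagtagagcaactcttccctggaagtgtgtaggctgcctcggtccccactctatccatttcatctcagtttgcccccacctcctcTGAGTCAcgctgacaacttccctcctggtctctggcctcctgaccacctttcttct
Cd68, chr11:69666171-69666420: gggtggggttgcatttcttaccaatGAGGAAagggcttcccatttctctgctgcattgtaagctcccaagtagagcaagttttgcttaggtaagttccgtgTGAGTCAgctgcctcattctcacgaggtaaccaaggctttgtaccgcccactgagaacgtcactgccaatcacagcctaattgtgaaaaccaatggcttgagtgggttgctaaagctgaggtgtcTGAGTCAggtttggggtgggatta
Marco, chr1:120505025-120505274: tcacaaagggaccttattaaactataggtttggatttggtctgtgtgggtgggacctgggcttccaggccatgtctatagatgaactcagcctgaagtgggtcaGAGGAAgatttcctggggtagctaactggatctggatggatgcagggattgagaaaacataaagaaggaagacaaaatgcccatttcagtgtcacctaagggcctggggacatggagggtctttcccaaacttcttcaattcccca

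Promoters of 8 markers were found in the sequence table. GAGGAA or its complement TTCCTC was present upstream of 4 of these 8, namely Cd68, Clec7a, Marco and Vsig4, and in 23.3% of all 32851 promoters of the same length. TGAGTCA or its complement TGACTCA was present upstream of Cd68, with 2 matches, and of Itgax, with 1, and in 4.46% of all promoters. In Cd68 these matches begin 149 and 24 bases before the start, and in Itgax the match begins 56 bases before it. The single PU.1 core of Clec7a begins 90 bases before its start, and that of Marco 146 bases before. These are matches of letters, and binding was not measured.

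Clec7a encodes Dectin-1, a C-type lectin of myeloid cells that binds beta-glucan of fungal walls and signals through the kinase Syk. Its probe set read 8.11, 7.71 and 7.69 in GHRH-KO replicates 4, 5 and 6, against 6.60, 5.36 and 5.84 in control replicates 1, 2 and 3. The lowest GHRH-KO array stood 1.10 above the highest control array. The means were 7.84 ± 0.23 in GHRH-KO liver and 5.93 ± 0.62 in control liver (SD, n = 3 each), a log2 fold change of 1.90 (standard error 0.30, limma, adjusted p = 0.0335), or 3.74-fold. It had the largest increase of the 10 markers, and ranked 63 from the top among the 12469 genes tested. The log2 fold change stayed between 1.62 and 2.23 with any 1 array left out. The call, however, was lost without GHRH-KO replicate 4 (adjusted p = 0.0902), GHRH-KO replicate 5 (0.0663), GHRH-KO replicate 6 (0.103), control replicate 2 (0.0865) or control replicate 3 (0.112) and was kept without control replicate 1 (0.0152).

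Itgax encodes integrin alpha X, the CD11c chain of dendritic cells and some macrophages, which pairs with the beta 2 chain encoded by Itgb2. It read 6.32, 5.92 and 6.27 in GHRH-KO replicates 4, 5 and 6, against 4.97, 5.27 and 5.20 in control replicates 1, 2 and 3. Arrays within each group lay close together, and the nearest arrays of the groups were 0.65 apart. The control signal was low, not far above 4.75, the highest reading of the Ghrh probe set, used below as a background level. The means were 6.17 ± 0.22 in GHRH-KO liver and 5.15 ± 0.16 in control liver (SD, n = 3 each), with a log2 fold change of 1.02 (standard error 0.15, limma, adjusted p = 0.0273), or 2.03-fold. Its partner Itgb2 read 7.32, 6.29 and 6.82 in GHRH-KO liver and 6.62, 5.64 and 5.25 in control liver, with a log2 fold change of 0.97 that was not called (limma, adjusted p = 0.256). The call of Itgax was kept without GHRH-KO replicate 5 (adjusted p = 0.0198) and lost without GHRH-KO replicate 4 (0.0800), GHRH-KO replicate 6 (0.111), control replicate 1 (0.0755), control replicate 2 (0.0818) or control replicate 3 (0.0937), while the log2 fold change ran from 0.93 to 1.15.

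Cd68, a glycoprotein of lysosomes and endosomes that is abundant in phagocytes, was the most even marker within GHRH-KO liver and one of the uneven ones within control liver. It read 7.08, 6.99 and 7.00 in GHRH-KO replicates 4, 5 and 6, against 6.74, 5.38 and 5.40 in control replicates 1, 2 and 3. The GHRH-KO arrays lay within 0.10 of each other, while control replicate 1 stood well above the other two controls and only 0.25 below the nearest GHRH-KO array. The log2 fold change of 1.19 (95% interval 0.36 to 2.02) had an unadjusted p of 0.0116 from limma and an adjusted p of 0.155. At an unadjusted p under 0.05, 3 of the 10 markers were higher, against 9.15% of all genes, and 0 were lower, against 10.1%. With the probe set of lowest p taken for each gene, 2 markers were called higher, against 1.03% of all genes, and 0 lower, against 1.23%. Without control replicate 1 the log2 fold change of Cd68 was 1.64 and the gene was called (limma, adjusted p = 0.00674).

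**Figure D2:**
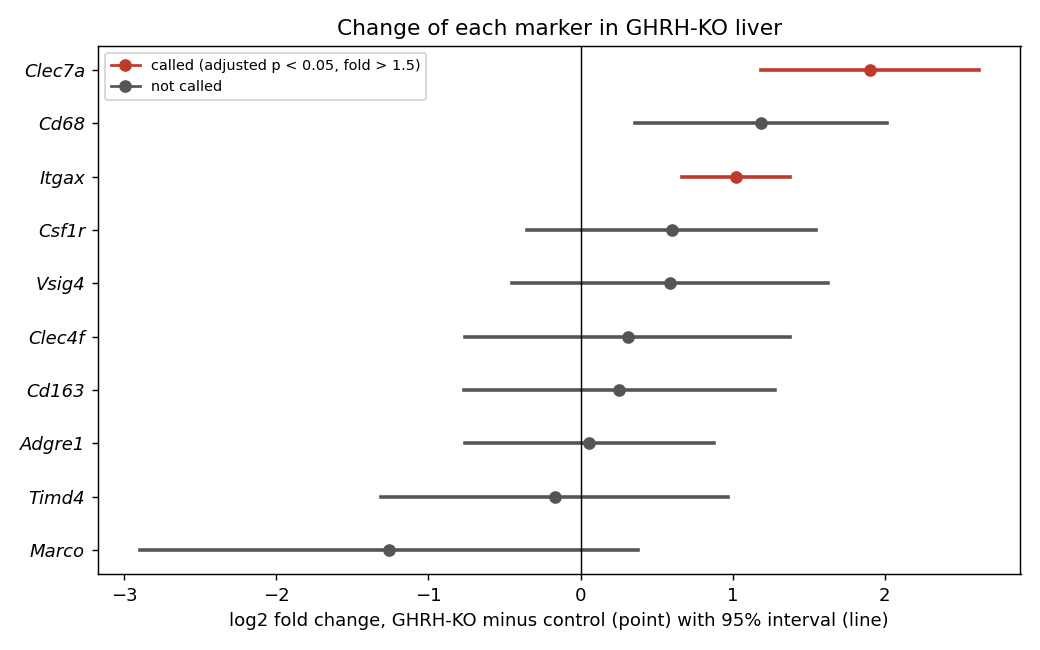
Log2 fold change of each marker (point) with its 95% interval from limma (line), GHRH-KO minus control, in order of size. Clec7a and Itgax, in red, passed the threshold; the interval of Cd68 lies above 0 without an adjusted call, and those of the other 7 markers include 0.

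Csf1r and Adgre1 are general markers of mouse macrophages. Csf1r encodes the receptor for the growth factors CSF1 and IL34, on which macrophage survival depends, and Adgre1 encodes an adhesion receptor of mature macrophages. Csf1r read 11.38, 10.01 and 10.51 in GHRH-KO replicates 4, 5 and 6, against 10.68, 9.88 and 9.55 in control replicates 1, 2 and 3. The values interleaved, with control replicate 1 above both GHRH-KO replicates 5 and 6. Its log2 fold change was 0.60 (95% interval -0.35 to 1.55, limma, adjusted p = 0.464), and the 2 other probe sets gave 0.46 each. Adgre1 read 7.94, 7.31 and 7.29 in GHRH-KO liver and 8.19, 6.86 and 7.31 in control liver, so that its highest value was a control. Its log2 fold change was 0.06 (95% interval -0.76 to 0.88, limma, adjusted p = 0.949). Both intervals include changes in either direction.

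Clec4f, Vsig4 and Timd4 mark resident Kupffer cells. Clec4f is a C-type lectin that in mice is specific to Kupffer cells, Vsig4 (CRIg) is a receptor for fragments of complement C3, and Timd4 binds phosphatidylserine on dying cells. Clec4f read 9.50, 8.39 and 8.94 in GHRH-KO replicates 4, 5 and 6 and 9.60, 7.96 and 8.32 in control replicates 1, 2 and 3. Vsig4 read 10.07, 8.71 and 9.38 in GHRH-KO liver and 9.61, 8.19 and 8.60 in control liver. Both genes showed the same layout, with GHRH-KO replicate 4 and control replicate 1 high and the other arrays lower. The log2 fold change was 0.31 for Clec4f (95% interval -0.76 to 1.38, limma, adjusted p = 0.744) and 0.59 for Vsig4 (95% interval -0.45 to 1.63, limma, adjusted p = 0.509). Timd4 read 5.96, 4.28 and 4.95 in GHRH-KO liver and 6.03, 4.94 and 4.73 in control liver, a log2 fold change of -0.17 (95% interval -1.31 to 0.97, limma, adjusted p = 0.880). Its signal was low: the values of GHRH-KO replicate 5 and control replicate 3 lay at or under 4.75, the highest reading of the Ghrh probe set, whose transcript is made in the hypothalamus and not expected in liver.

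Marco and Cd163 are scavenger receptors. Marco binds bacteria and particles, and Cd163 takes up the complex of haemoglobin with haptoglobin. Marco read 6.68, 4.54 and 5.50 in GHRH-KO replicates 4, 5 and 6, against 8.01, 6.84 and 5.65 in control replicates 1, 2 and 3. The values spanned a 4.41-fold range among GHRH-KO livers and a 5.15-fold range among control livers, the widest spread of any marker, and GHRH-KO replicate 5 was at the level of the Ghrh probe set. The mean difference was -1.26 on the log2 scale (95% interval -2.90 to 0.38, limma, adjusted p = 0.381), a mean 2.40 times lower, and 1.36% of all genes had a mean at least 2 times lower. Its second probe set gave -0.81 (limma, adjusted p = 0.303). Cd163 read 8.13, 6.54 and 7.15 in GHRH-KO liver and 7.53, 7.10 and 6.42 in control liver, a log2 fold change of 0.25 (95% interval -0.77 to 1.28, limma, adjusted p = 0.786).

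The markers varied more between mice of 1 genotype than most transcripts did. The median SD of the 10 markers was 0.62 among GHRH-KO arrays and 0.69 among control arrays, against 0.16 for all genes tested in each group. GHRH-KO replicate 4 was the highest GHRH-KO array for all 10 markers, a place it held in 29.0% of all genes. Control replicate 1 was the highest control array for 9 of them, all but Itgax, and in 35.4% of all genes. GHRH-KO replicate 5 was lowest of its group for 8 markers, and the lowest control was replicate 2 for 5 markers and replicate 3 for 4. Averaged over the 10 markers, the deviation from the 6-array mean was 0.80, -0.28 and 0.15 in GHRH-KO replicates 4, 5 and 6, and 0.48, -0.54 and -0.62 in control replicates 1, 2 and 3. Across the whole array, GHRH-KO replicate 5 and control replicate 2 deviated most from the probe set medians (interquartile range 0.357 and 0.316, against 0.185 to 0.249 in the others), and the part of this spread in the marker values was not tested. Without GHRH-KO replicate 4 and control replicate 1 together, a choice made after seeing the data, the groups lay apart with GHRH-KO higher for 6 markers and lower for Marco, but with 2 arrays a group this held for 26.0% and 24.5% of all genes. In that fit Clec7a and Cd68 were called, against 0.345% of all genes called higher, while Itgax was not (limma, adjusted p = 0.164).

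**Figure D3:**
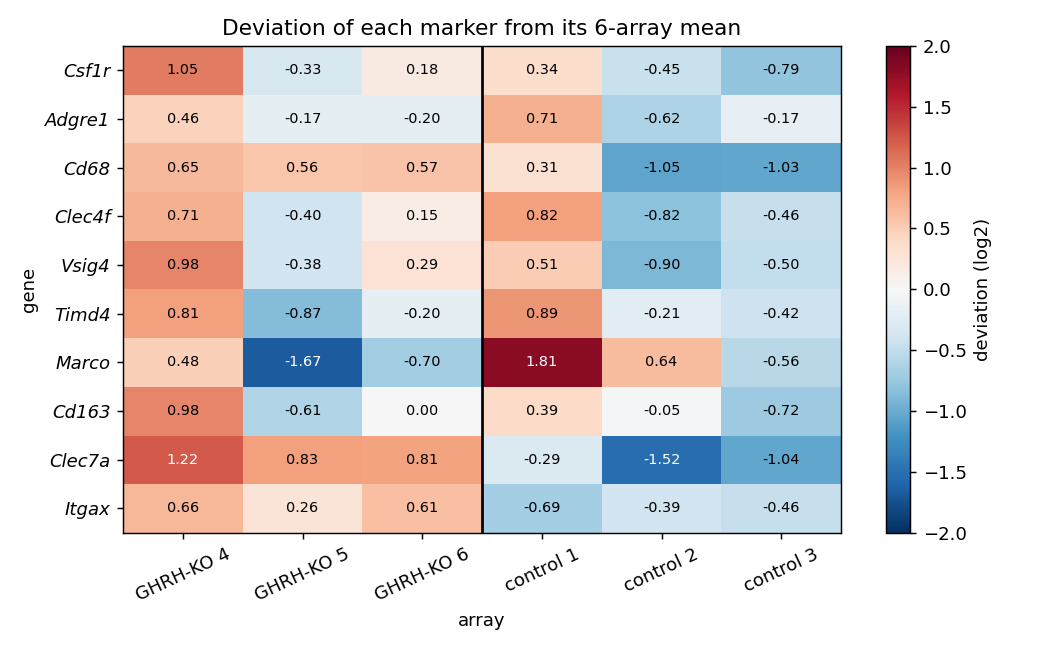
Deviation (log2) of each marker from its mean over the 6 arrays, with GHRH-KO arrays left of the line and control arrays right of it; red is above the mean and blue below. GHRH-KO replicate 4 is red in all 10 rows and control replicate 1 in 8, while the Clec7a and Itgax rows change colour at the line between the genotypes.

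Since Clec4f is specific to Kupffer cells in mice, the difference between each marker and Clec4f of the same array was also examined, a choice made after seeing the values and given without a test. Clec7a minus Clec4f was -1.39, -0.68 and -1.25 in GHRH-KO replicates 4, 5 and 6, against -3.01, -2.60 and -2.48 in control replicates 1, 2 and 3. These groups lay apart, with a mean difference of 1.59 on the log2 scale. Marco minus Clec4f was -2.82, -3.85 and -3.44 in GHRH-KO liver, against -1.59, -1.13 and -2.68 in control liver, and the groups lay apart in the opposite direction, with a mean difference of -1.57. Cd68 and Vsig4 lay wholly higher in GHRH-KO liver by this measure, with mean differences of 0.87 and 0.28, whereas Itgax overlapped (mean difference 0.71). After the same subtraction 0.77% of all other genes lay wholly higher in GHRH-KO liver and 1.57% wholly lower. The spread of Clec4f between arrays enters every such difference. In a marker that varies with Clec4f it partly cancels, as it need not in other genes. These shares therefore cannot be set beside those of the values themselves, and are not a like background for the markers. With Vsig4, Adgre1 or Csf1r subtracted in place of Clec4f, Clec7a lay apart and higher in all 4 versions. Cd68 lay apart and higher in 2 of 4 and Vsig4 in 1 of 3. Marco lay apart and lower in 3 of 4, Timd4 in 2 of 4, Cd163 in 1 of 4 and Clec4f in 1 of 3. Adgre1, Csf1r and Itgax overlapped in every version. Over the 4 versions 0.385% to 1.74% of all genes lay apart and higher and 1.32% to 7.57% apart and lower, shares with the same limit. Such a difference shows that 2 transcripts changed unequally, and which of them changed cannot be told from it.

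**Figure D4:**
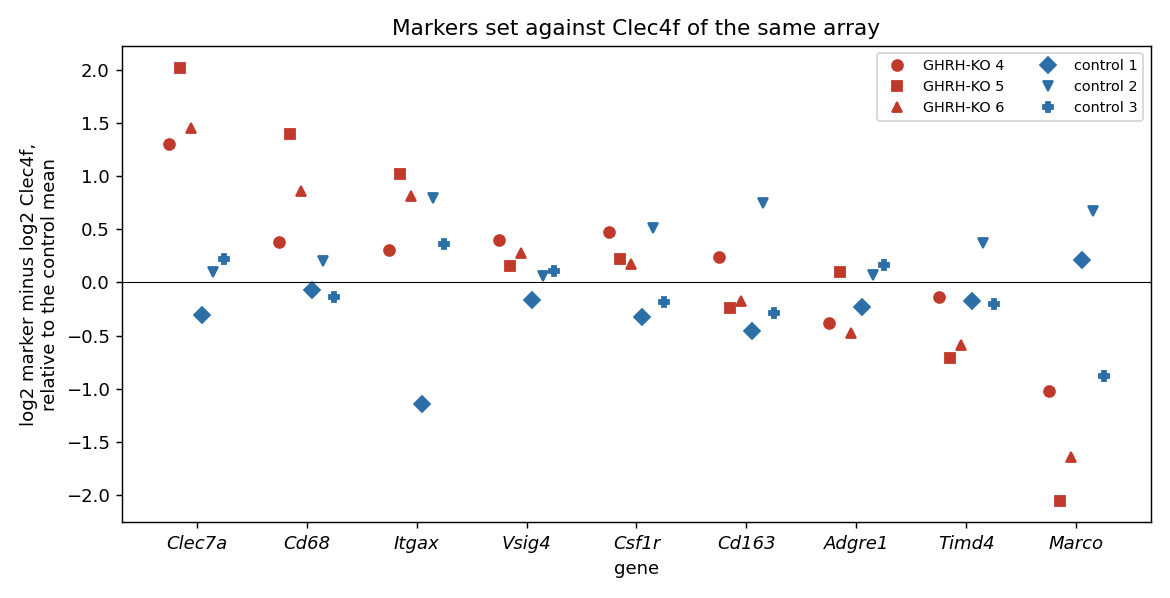
Log2 value of each marker minus that of Clec4f in the same array, set to a control mean of 0, for GHRH-KO arrays (red, left) and control arrays (blue, right). The GHRH-KO points of Clec7a lie above, and those of Marco below, all control points of that gene, while the groups overlap for Itgax, Csf1r, Cd163, Adgre1 and Timd4.

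Transcripts shared by macrophages in general were mostly higher on average in GHRH-KO liver, without a call. In a list of 20 such genes, 19 were tested, and 0 rose and 0 fell by limma. At an unadjusted p under 0.05, 4 were higher in GHRH-KO liver, against 9.15% of all genes, and 0 were lower, against 10.1%. In this list the mean difference was above 0 in all 19, against 50.5% of all genes. Without GHRH-KO replicate 4, or without control replicate 3, it was above 0 in 17. The genes of this list varied together over the same 3 mice a group, so they are not 19 separate outcomes. The median log2 fold change was 0.67. With 1 array left out it ran from 0.41 (without control replicate 2) to 1.09 (without control replicate 1). In the fit without control replicate 1, Lyz1, Tyrobp and Cd53, 3 of the 19, were called higher, against 0.746% of all genes. The summed level of the list, given as its mean RMA value, was 7.78 to 8.47 in GHRH-KO liver and 7.06 to 8.23 in control liver, and GHRH-KO replicate 4 and control replicate 1 were each the highest of their group for 18 of the 19 genes. Ctss, a lysosomal protease, read 10.54, 9.41 and 9.56 in GHRH-KO liver and 9.73, 8.11 and 8.09 in control liver (log2 fold change 1.19, adjusted p = 0.268). Fcgr3, a receptor for immunoglobulin G, was the 1 gene of this list with groups that did not overlap, with 7.60, 6.99 and 6.93 in GHRH-KO liver and 6.55, 5.81 and 6.11 in control liver (log2 fold change 1.02, adjusted p = 0.105). Cd53, a leukocyte tetraspanin, had a log2 fold change of 1.08 (adjusted p = 0.281).

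Other genes of resident Kupffer cells gave no call. Of 14 tested in a list of 18, 0 were called, 9 had a mean difference above 0, and the median was 0.16. This median had no stable sign, at -0.086 without GHRH-KO replicate 4, where 4 of 14 genes were above 0, and at -0.0097 without control replicate 2. It was 0.46 without GHRH-KO replicate 5 and 0.47 without control replicate 1. Their summed level overlapped, at 7.60 to 8.63 in GHRH-KO liver and 7.73 to 8.65 in control liver. Whether other cells of the liver added to the signal of these genes was not tested. C1qb, a chain of complement C1q, read 10.14, 8.67 and 9.46 in GHRH-KO liver and 10.01, 8.30 and 8.26 in control liver. C1qa had a mean difference of -0.46 with a value of 6.10 in GHRH-KO replicate 5, far below its other 5 arrays. Id3, a helix-loop-helix regulator that Kupffer cells require in mice, was lower on every GHRH-KO array, with 8.61, 7.81 and 7.83 against 9.65, 8.76 and 8.99 in control liver, a mean difference of -1.05 that was not called (limma, adjusted p = 0.143).

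Genes of recruited monocytes and of dendritic cells, which also express Itgax, were weakly represented. Of 16 monocyte genes 7 were tested and 0 were called, with a median of 0.41, which was 0.072 without control replicate 2, 0.19 without control replicate 3 and 0.23 without GHRH-KO replicate 5. Without control replicate 1, Plac8 and Lgals3, 2 of the 7, were called higher, against 0.746% of all genes. Lgals3, a lectin of activated macrophages, read 7.97, 8.06 and 8.09 in GHRH-KO liver and 7.47, 6.27 and 6.27 in control liver (log2 fold change 1.37, limma, adjusted p = 0.0925), and the tetraspanin gene Cd9 was lower on every GHRH-KO array (-0.85, adjusted p = 0.0640), while Plac8 overlapped (0.44, adjusted p = 0.652). Of 14 dendritic cell genes 10 were tested, and Cd83, a surface protein of mature dendritic cells, rose. It read 5.59, 5.70 and 6.16 in GHRH-KO liver and 4.52, 4.46 and 4.15 in control liver, at least 2.10-fold higher, since the control mean lies under the highest Ghrh value (limma, adjusted p = 0.0168). With control replicate 2 or control replicate 3 left out Cd83 was not called (adjusted p = 0.0719 and 0.0681 in that order). Irf8, a transcription factor of dendritic cells and macrophages, lay apart without a call (6.95, 6.23 and 6.53 against 5.93, 5.41 and 4.80 in control liver, log2 fold change 1.19, adjusted p = 0.119), as did Cst3 (0.25, adjusted p = 0.345), whereas Cd24a overlapped (1.01, adjusted p = 0.514). Cd24a read 6.63, 6.46 and 7.24 in GHRH-KO liver and 7.74, 4.57 and 4.98 in control liver, where only control replicate 1 was far above the Ghrh level. Without control replicate 1, Cd83 and Cd24a, 2 of the 10, were called higher, against 0.746% of all genes. The median of the dendritic cell list was 0.17 with all arrays.

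The partners of the markers in their pathways gave few calls. For Clec7a, 8 of 12 genes of Dectin-1 signalling were tested and 0 were called (median 0.19). Syk, the kinase below the receptor, had a log2 fold change of 0.33 with groups apart (limma, adjusted p = 0.229), Bcl10 one of 0.27 (adjusted p = 0.406), and Clec4n, which encodes Dectin-2, read 6.55, 6.13 and 6.19 in GHRH-KO liver and 5.61, 4.68 and 4.86 in control liver (1.24, adjusted p = 0.0718). For Csf1r, 9 of 13 genes of colony-stimulating factor receptors, ligands and signalling were tested and 0 were called (median 0.15), with Csf2rb at 0.61, Fgr at 0.34 and Inpp5d at -0.25. For Itgax, 10 of 12 leukocyte integrins and ligands were tested and 0 were called (median 0.21), among them Itga4 at 0.45 and Itgb1 at -0.40. For Vsig4, 5 of 8 complement receptors were tested and 0 were called (median 0.15), with Cd93 at 0.25 and C3ar1 at -0.30.

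For Marco, 12 of 14 scavenger receptors were tested, with a median of 0.31, and Scara5 fell. Scara5 encodes a ferritin receptor that is known from stromal and epithelial cells. It read 4.76, 4.05 and 4.33 in GHRH-KO liver, near the level of Ghrh, against 8.56, 9.38 and 7.03 in control liver, a mean at least 11.9 times lower (limma, adjusted p = 0.0221). Its call was kept without control replicate 3 (adjusted p = 0.00591) and lost without GHRH-KO replicate 4 (0.0522), GHRH-KO replicate 5 (0.0539), GHRH-KO replicate 6 (0.0850), control replicate 1 (0.0708) or control replicate 2 (0.0601). Cd36, a fatty acid and lipoprotein receptor also made by hepatocytes, lay apart at 0.97 without a call (adjusted p = 0.111), and the macrophage receptors Msr1 and Mrc1 had log2 fold changes of 0.67 and 0.42 with overlapping groups. For Timd4, 14 of 16 genes for uptake of dying cells were tested and 0 were called (median 0.24), with 0.64 for Axl, 0.55 for Itgav and 0.48 for Mfge8, a bridge to phosphatidylserine whose groups lay apart. For Cd163, 11 of 12 genes of haemoglobin and haem clearance were tested and 0 were called (median 0.08), with Slc11a1 at 0.40, Hmox1 at 0.31 and Slc11a2 at -0.30. Of 14 macrophage cytokines 9 were tested and 0 were called (median 0.25). Ccl5 read 6.44, 6.30 and 7.51 in GHRH-KO liver and 4.95, 5.42 and 5.29 in control liver (1.53, adjusted p = 0.0754), Ccl6 had a log2 fold change of 1.19 (adjusted p = 0.182) and Ccl2 one of 0.61 (adjusted p = 0.117).

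**Figure D5:**
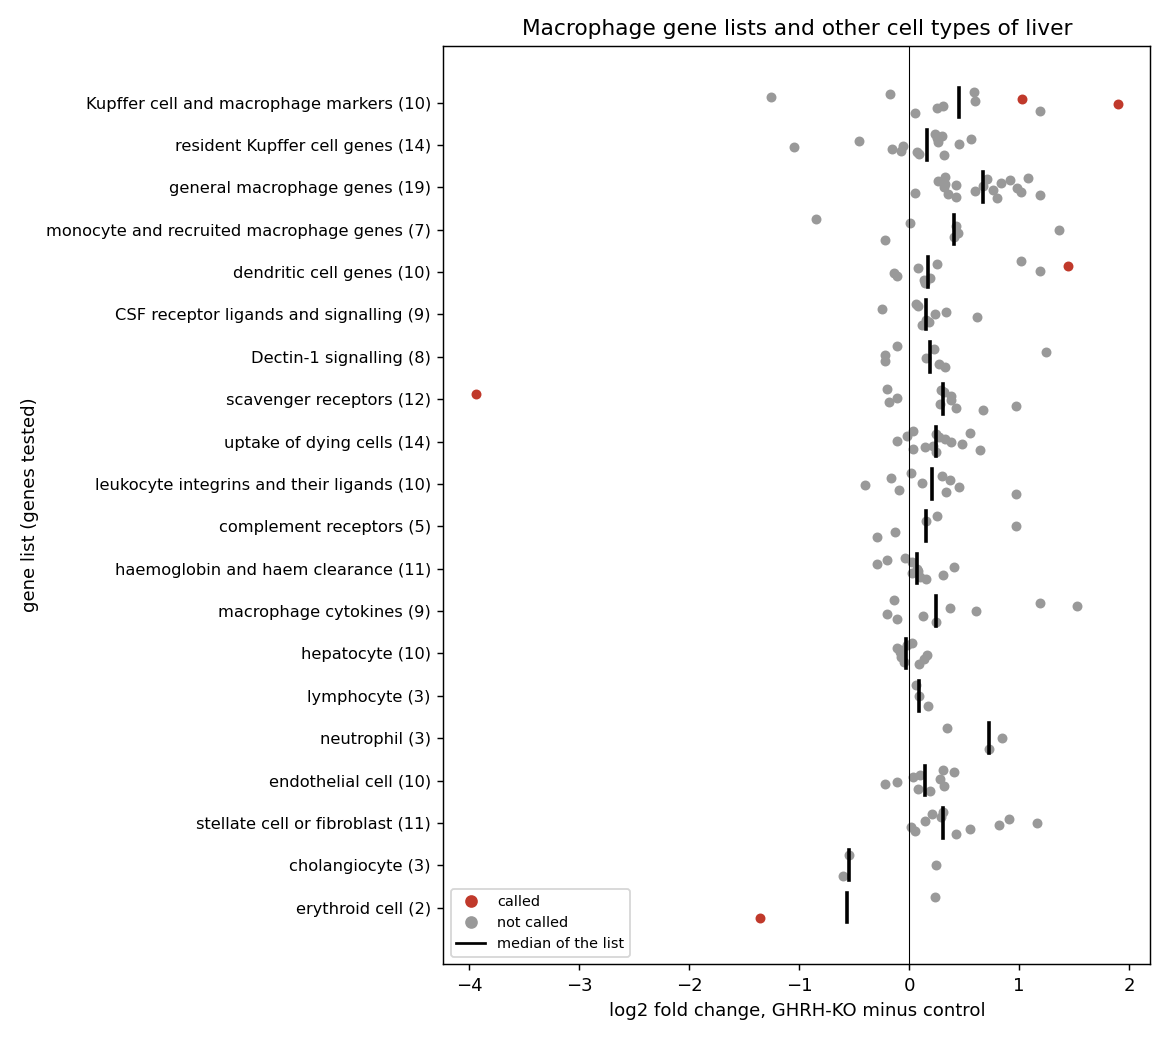
Log2 fold change (GHRH-KO minus control) of each tested gene in the marker set, the macrophage lists and the lists of other liver cell types, with called genes in red, the others in grey and the list median as a black bar; the number tested stands in brackets. All 19 general macrophage genes lie above 0, the hepatocyte genes lie close to 0, the neutrophil genes are at background in control liver, and Clec7a, Itgax, Cd83, Scara5 and Alas2 are the called genes.

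Markers of other liver cells were set beside these values. The hepatocyte list (10 of 12 tested, median -0.03, summed level 13.85 to 13.96 in GHRH-KO liver and 13.86 to 13.92 in control liver) hardly differed between arrays, with 0.16 for Apob, 0.14 for Ttr and -0.11 for Fga. The stellate cell or fibroblast list (11 of 11, median 0.31, all 11 above 0) ran from 8.28 to 8.74 in GHRH-KO liver and from 7.89 to 8.53 in control liver, with 1.16 for Col3a1, 0.90 for Pdgfrb and 0.81 for Col1a2, and here GHRH-KO replicate 4 was the highest GHRH-KO array for 0 of 11 genes while control replicate 1 was the highest control for 9. The endothelial list (10 of 11, median 0.14) ran from 7.89 to 8.21 in GHRH-KO liver and from 7.77 to 8.15 in control liver, with 0.40 for Vwf, 0.32 for Tek and 0.31 for Oit3. In the neutrophil list (3 of 10) the control means of S100a9, S100a8 and Cxcr2 all lay under the highest Ghrh value, so no fold change is given, and the summed level was 4.78 to 5.43 in GHRH-KO liver and 4.46 to 4.64 in control liver. The lymphocyte list (3 of 15, median 0.09) ran from 5.62 to 5.78 in GHRH-KO liver and from 5.43 to 5.81 in control liver, and Cd3e had 0.17, Cd3d 0.09 and Cd4 0.07. No gene of these 5 lists was called, and the part of any of these cell types in the marker values was not tested. In the cholangiocyte list (3 of 8, median -0.54, 5.10 to 5.24 in GHRH-KO liver and 5.17 to 5.93 in control liver) Krt19 read 7.04 in control replicate 1 and under 5 elsewhere, the median was 0.19 without that array, and Sox9 and Epcam had -0.54 and 0.25. Of 2 erythroid genes tested in a list of 9, Alas2, an enzyme of haem synthesis, fell by 1.36 on the log2 scale (limma, adjusted p = 0.0219), a call lost without GHRH-KO replicate 6 (adjusted p = 0.0844), control replicate 2 (0.0784) or control replicate 3 (0.0820), and Epor had 0.23, with a summed level of 8.04 to 8.29 in GHRH-KO liver and 8.48 to 8.95 in control liver.

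The transcripts whose pattern over the 6 arrays came closest to the mean of the 10 markers were leukocyte genes. Among 3237 other genes with an SD of at least 0.3 these were Cybb, a subunit of the phagocyte NADPH oxidase (Pearson's r = 0.997 over 6 arrays), Itgal, the alpha L integrin of leukocytes (0.990), C1qb (0.989), Fyb, an adaptor protein of leukocytes (0.985), and Treml4, a receptor of myeloid cells (0.985). With only 6 arrays and so many genes, high values of r arise among many transcripts. Cybb read 8.83, 7.44 and 7.95 in GHRH-KO replicates 4, 5 and 6 and 8.40, 6.94 and 6.76 in control replicates 1, 2 and 3, with a log2 fold change of 0.71 (limma, adjusted p = 0.485). Itgal had 0.34, Fyb 0.37 and Treml4 0.51, and none of the 5 was called.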

How the data were processed

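Liver RNA was hybridised by the authors to Affymetrix whole-genome mouse arrays, and the deposited values are on the log2 scale from RMA (background correction, quantile normalization and summary per probe set), 1 column per array without pooling. The RMA version is not given in the sources used here. Values ran from 2.53 to 14.7, and array medians from 4.95 to 4.99. With 3 arrays in each genotype, the small number limits precision. Whether the littermates share litters is not stated.

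After removal of 64 control probe sets, the 55.8% with the highest mean over all 6 arrays were kept, a share set by how many probe sets the study's methods retained. They covered 12469 genes, all 10 markers among them. The difference GHRH-KO minus control came from lmFit and eBayes (limma 3.58.1, R 4.3.3). Probe sets were assigned to genes by the platform annotation, which gave 1 gene for 34958 probe sets, several for 932 and none for 9211. For 34754 of those with 1 gene the symbol was taken from RefSeq by Entrez gene identifier, and otherwise from the annotation. The Ghrh probe set read 4.40 to 4.57 in GHRH-KO liver and 4.41 to 4.75 in control liver, and since liver is not its site of expression it does not check the genotypes. Its highest value served as a background level, a rule set after seeing the data.

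The text names the 10 markers, in each list the called genes and the 3 others of largest absolute fold change, and the 5 genes closest in pattern. Lyz1, Tyrobp and Ghrh were named after their values were seen. Markers and lists were chosen with earlier results of these data known. On simulated data the model called 58% of rises and 36% of falls of 1 on the log2 scale. It called 96% of rises and 96% of falls of 2, and 6 of 149 calls were false. A gene that was not called may therefore still have changed. Recovery at the spread of the 10 markers was not tested separately. Their median SD was 0.62 among GHRH-KO arrays and 0.69 among control arrays, against 0.16 for all genes tested in each group. The shares above are therefore not given as shares for the markers. Alternatives covered the filter, probe set choice, cross-hybridizing probe sets, normalization, array weights, the variance trend and omitted arrays. Plots used matplotlib 3.10.9 (Python 3.11.15).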

Additional observations from a re-analysis of the deposited data

How the results depend on the processing

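Clec7a and Itgax were both called, and no marker was called lower, without the filter on dim probe sets, with the probe set of lowest p, without cross-hybridizing probe sets, after a second quantile normalization, after median centring, with array weights and with an intensity trend. A stricter filter tested 7 markers and called 1, Clec7a, since Itgax, Marco and Timd4 were too dim to enter. With control replicate 2 and GHRH-KO replicate 5 both left out, 1 marker was called, Itgax. Over the 12 macrophage lists, 1 of 120 genes tested was called higher (0.833%, against 0.786% of all genes) and 1 lower (against 0.97% of all genes). In these lists 0 genes were called higher with the stricter filter, 2 with the probe set of lowest p and 6 with array weights, which also called 2 lower. Over all genes, array weights called 248 higher and 288 lower, the probe set of lowest p 128 and 153, and the stricter filter 78 and 108. Without control replicate 2 and GHRH-KO replicate 5, 0 genes of the macrophage lists were called higher and 0 lower, against 42 and 64 of all genes. Without control replicate 1 and GHRH-KO replicate 4, chosen after seeing the data, 3 list genes were called higher and 0 lower, against 43 and 38 of all genes. In that fit the markers with groups apart numbered 6 above and 1 below, against 26.0% and 24.5% of all genes. Adgre1 turned to -0.12 with array weights and -0.14 without control replicate 2 and GHRH-KO replicate 5, where Timd4 turned to 0.074. The cause of these changes was not tested, apart from the stricter filter, which tests fewer genes.

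With 1 array left out at a time, the number of markers called higher ran from 0 to 2. Markers with groups apart numbered from 3 to 6 above (15.7% to 19.7% of all genes) and from 0 to 1 below (19.0% to 21.3% of all genes). Of the 120 list genes, from 0 to 9 were called higher (0.289% to 0.746% of all genes) and from 0 to 1 lower (0.369% to 0.762% of all genes). All-gene counts in the same fits fell to between 36 and 93 higher and between 46 and 95 lower, against 98 and 121 with all arrays. The median of the markers ran from 0.13 to 0.86. List medians that changed sign were those of the resident Kupffer cell (-0.086 to 0.47), haem clearance (-0.023 to 0.11), lymphocyte (-0.0026 to 0.22) and cholangiocyte (-0.60 to 0.19) genes, and that of the hepatocyte genes (-0.036 to 0.012). Those of the Dectin-1 (0.088 to 0.30), cytokine (0.10 to 0.31), integrin (0.051 to 0.28), complement receptor (0.064 to 0.18), endothelial (0.022 to 0.27) and stellate cell (0.19 to 0.53) genes kept their sign. The log2 fold change changed sign for Adgre1 (-0.24 to 0.43), Cd163 (-0.18 to 0.62), Clec4f (-0.022 to 0.80) and Timd4 (-0.62 to 0.23). No paired analysis was possible because the labels give no litters or other pairing of the mice. Signal near background limits Timd4 and Marco, for which 3 of the 60 marker values, all in these genes, lay at or under the Ghrh level. The control values of Itgax, with a mean of 5.15, were also low, though above that level.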

Other observations

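The chains of complement C1q, made in liver mainly by macrophages, did not move together on every array. C1qa read 9.84, 6.10 and 9.32 in GHRH-KO replicates 4, 5 and 6 and 9.86, 8.29 and 8.49 in control replicates 1, 2 and 3. C1qc, named after its values were seen, read 9.02, 7.59 and 8.39 in GHRH-KO liver and 8.86, 7.72 and 7.68 in control liver. The low C1qa value of GHRH-KO replicate 5 had no counterpart of that size in C1qc or C1qb, and its cause was not tested.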
